A study of Mus musculus with 6 samples.

Results

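Undifferentiated spermatogonia genes are described here through 10 genes chosen by their symbols, Gfra1, Id4, Ret, Nanos2, Nanos3, Zbtb16, Lhx1, Eomes, Neurog3 and Sall4. All 10 were found, each as 1 row, among the 29333 genes of the authors' deposited table. The samples were whole mouse testes at postnatal day 16, profiled by RNA sequencing. One group was Hsf5 knockout testes (Hsf5-/-). The reference animals were labelled wild type, while the study's design text also allows Hsf5+/- animals among them, so they are called controls. Of 3 samples per group in the labels, 2 per group were analysed here, knockout 1, knockout 3, control 1 and control 2. The sources used here do not say how the allele was made, which strain was used or whether animals were pooled. No label ties the numbered samples to separate animals. The p-values therefore describe the spread among these libraries alone, and part of it may be technical.

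Undifferentiated spermatogonia are the germ cells of the testis that hold the stem cells and renew the supply of sperm. Sertoli cells and peritubular cells secrete GDNF, which binds the co-receptor GFRA1 and signals through the receptor tyrosine kinase RET to sustain renewal. Inside the cell, ID4 and the RNA-binding protein NANOS2 mark the most stem-like state, ZBTB16 (PLZF) and SALL4 are transcription factors of the wider undifferentiated pool, and NEUROG3 and NANOS3 mark cells on the way to differentiation. HSF5 is a heat shock factor family member that is known from spermatocytes, a later stage, so a comparison of the knockout with controls asks here what happens to genes of the cells that come first.

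Id4 was the only member that passed the test. It fell to about 53% of its control level in knockout testes (53.4%). Zbtb16, Sall4, Ret and Nanos3 had higher values in both knockout libraries than in both controls, at 114% to 149% of the control mean. None of them passed the test. Groups apart in that direction were common, at 29.8% of all tested genes, beside 31.9% in the lower direction. Eomes, on few reads, was lower in both knockouts than in both controls and was not called. Of the 9 members tested, 1 was called lower and 0 higher (limma, Benjamini-Hochberg adjusted p under 0.05). Of all 17480 genes tested, 13.5% were called lower and 3.28% higher. The 1 lower call among 9 members is thus near the share over all genes. At an unadjusted p under 0.05, limma had 2 members higher, Ret and Sall4, and 1 lower, beside 5418 of all 17480 genes in either direction. The edgeR and DESeq2 tests, run on recovered reads, also called 1 member lower and 0 higher, and each had 1 member higher at an unadjusted p under 0.05. Over all genes edgeR called 12.3% lower and 2.96% higher, and DESeq2 called 13.3% lower and 3.28% higher. At an unadjusted p under 0.05, edgeR had 5287 and DESeq2 4383 of the 17480 genes, in either direction.

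Because Id4 carries the call, its promoter is shown, from 250 bases before to 50 bases after the annotated start (RefSeq, GRCm38.p6, chr13:48260866-48261165, plus strand). Capitals mark the GC box GGGCGG, read on either strand.

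Id4: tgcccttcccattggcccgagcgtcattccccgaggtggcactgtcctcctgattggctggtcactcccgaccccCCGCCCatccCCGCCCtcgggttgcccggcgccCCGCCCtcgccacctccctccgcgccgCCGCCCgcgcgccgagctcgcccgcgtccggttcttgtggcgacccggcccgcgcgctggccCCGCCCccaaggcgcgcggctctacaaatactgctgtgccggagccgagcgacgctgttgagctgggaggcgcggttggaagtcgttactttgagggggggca

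The window had 73.3% G and C, against a median of 52.7% over 32851 promoter windows. It held 5 GC boxes, all on the minus strand, at -175, -165, -142, -115 and -53 from the start, and 35.7% of all windows held at least 1. The cores of the heat shock element, searched on both strands as GAANNTTC and TTCNNGAA, were not among its letters, and were in 7.86% and 8.52% of all windows. Of the members, 7 had a window in the RefSeq table. Of those, Nanos3 also held a GC box and none held either heat shock core. These matches describe letters only and say nothing of any factor.

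The libraries held 16824757 and 16209093 recovered reads in knockout 1 and knockout 3, against 18259304 and 18557898 in control 1 and control 2. Ranked over tested genes, the knockouts correlated with each other at a Spearman's rho of 0.993 and the controls at 0.986, and knockouts with controls at 0.940 to 0.973. Hsf5 itself, on chromosome 11, had normalised read counts of 1926 and 1602 in the knockouts, against 2541 and 3147 in the controls (log2 fold change -0.69, limma Benjamini-Hochberg adjusted p = 0.00716). That call was lost without knockout 3 and without control 2 (adjusted p up to 0.108, limma). Which exons the allele removes is not stated. Markers of pachytene spermatocytes fell as well, at a median log2 fold change of -2.39. Of all tested genes, 31.9% were lower in both knockouts than in both controls. The Hsf5 reads therefore cannot serve as a check of the labels. A normalised read count is a gene's reads divided by its library's size factor. All 16 Sertoli markers and all 6 pan germ cell markers, among them Sox9 and Ddx4, had reads. From 25249 to 25765 of the 29333 genes had a read in each library, so this alone does not identify the tissue. In whole tissue, fewer cells of a type and less RNA per cell cannot be told apart.

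Levels between genes were compared per length, as RPKM, the reads per kilobase of exon scaled by the library's recovered reads. Id4 was highest of the 10 members in knockout and in control testes, at 10.4 and 18.1, the means per group. Zbtb16 followed with 9.79 in knockouts and 7.94 in controls, and Sall4 with 9.28 and 7.04. Nanos3 came next at 4.20 in knockouts and 2.62 in controls, then Ret at 3.44 and 2.37, Gfra1 at 1.92 and 1.38, and Neurog3 at 1.06 and 0.668. Lhx1, Eomes and Nanos2 were lowest, all under 0.4 in each library. The order of the upper 7 was the same in both groups. Over the 4 libraries, the ranges of neighbours in that order did not overlap between Sall4 and Nanos3, between Ret and Gfra1, and between Neurog3 and Lhx1. All other neighbours overlapped over the 4 libraries. Within one group some of them were apart: Id4 stood at 17.5 and 18.7 in the controls, against 8.32 and 7.55 for Zbtb16, and Nanos3 stood at 3.99 and 4.41 in the knockouts, against 3.45 and 3.44 for Ret.

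**Figure D1:**
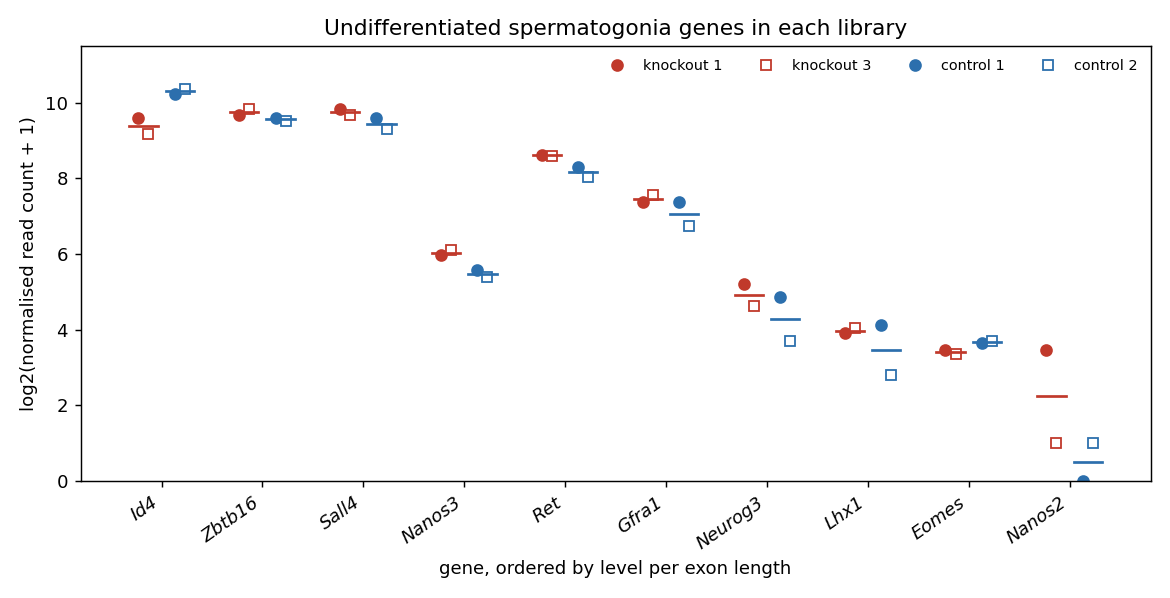
Normalised read counts of the 10 members, as log2(value + 1), in knockout 1, knockout 3, control 1 and control 2, with the group mean of the log values as a line. Id4 lies lower in both knockouts than in both controls, Zbtb16, Sall4, Nanos3 and Ret lie higher, and Nanos2 has at most 1 read in 3 of the 4 libraries.

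ID4 is a helix-loop-helix protein without a DNA-binding region that blocks basic helix-loop-helix factors, and it is used to mark spermatogonial stem cells in the mouse. Id4, on chromosome 13, had normalised read counts of 772 and 572 in knockout 1 and knockout 3, against 1194 and 1322 in control 1 and control 2. Both knockouts were lower than both controls, and the spread within each group was smaller than the gap between groups. The means were 672 ± 141 in knockouts and 1258 ± 90.8 in controls (SD, n = 2 each), a log2 fold change of -0.92 (SE 0.15, 95% interval -1.25 to -0.58, limma Benjamini-Hochberg adjusted p = 0.00376). For Id4, the authors' deposited table lists -0.90 (log2 fold change, SE 0.167) at an adjusted p of 1.64e-06. With control 2 left out, Id4 stood at -0.84 on the log2 scale and its limma call was lost (Benjamini-Hochberg adjusted p = 0.0957). The limma call was also lost when low genes were kept (adjusted p = 0.0675) and when the trend was dropped (adjusted p = 0.119). The change was negative in all 13 alternatives tried. With the groups apart, leaving out a library or changing the pseudocount, filter or trend could not turn its sign. Annotated genes that overlap Id4 exons on the other strand, A330033J07Rik and Gm49291, had at most 3.07 normalised reads in any library.

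Id4 also took a smaller part of the list's own reads, a measure that no library scaling touches. It made up 24.3% of the members' reads in knockout 1 (exact 95% binomial interval 22.8% to 25.8%) and 19.1% in knockout 3 (17.7% to 20.5%). In control 1 it made up 35.8% (34.2% to 37.4%) and in control 2 it made up 42.4% (40.6% to 44.1%). The intervals cover counting error only. As a ratio, Id4 stood at 0.321 and 0.236 of the other 9 members' summed value in the knockouts, against 0.558 and 0.735 in the controls. An exact two-sided permutation test of this ratio gave p = 0.333, the smallest that 2 libraries against 2 allow. Id4 was singled out by its call in these same libraries, so the shares and the ratio add no separate support. The other 9 members summed to 2403 and 2426 in the knockouts, against 2141 and 1799 in the controls.

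The receptor pair of GDNF was not called. Ret, the signalling receptor, had 393 and 386 normalised reads in knockout 1 and knockout 3, against 316 and 262 in control 1 and control 2. The knockouts were both higher than the controls and differed from each other by less than the controls did. Its log2 fold change was 0.44 (SE 0.15, 95% interval 0.097 to 0.77, limma Benjamini-Hochberg adjusted p = 0.0822). Scaled to library totals instead of the authors' size factors, Ret was called higher (adjusted p = 0.0372, limma), at a log2 fold change of 0.545. That scaling moved the median of all genes to 0.12 and called 8.64% of all genes higher. Gfra1, the GDNF co-receptor, had 164 and 186 in the knockouts, against 166 and 105 in the controls. The groups overlapped, with control 1 between the knockouts and control 2 the lowest. Its log2 fold change was 0.40 (95% interval -0.16 to 0.97, limma Benjamini-Hochberg adjusted p = 0.31) and was 0.078 without control 2, against 0.73 without control 1. Gfra1 stood at 0.418 and 0.483 of Ret in the knockouts, against 0.525 and 0.402 in the controls, so the ranges of this ratio overlapped.

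Transcription factors of the wider undifferentiated pool had slightly higher values in the knockouts, with no call. Zbtb16 encodes PLZF, a zinc finger repressor needed to keep the stem cell pool. Zbtb16 had 811 and 919 normalised reads in knockout 1 and knockout 3, against 779 and 734 in control 1 and control 2. Its log2 fold change was 0.19 (95% interval -0.057 to 0.44, limma Benjamini-Hochberg adjusted p = 0.276). The interval reaches 1.36-fold at its upper end and 0.961-fold at its lower end. Sall4 encodes a zinc finger factor found in both undifferentiated and early differentiating spermatogonia. Sall4 had 903 and 817 in the knockouts, against 778 and 627 in the controls, a log2 fold change of 0.30 (95% interval 0.0033 to 0.60, limma Benjamini-Hochberg adjusted p = 0.157). In both genes each knockout exceeded each control. Scaled to Sertoli markers, Zbtb16 stood at -0.0057, so its direction depends on the scaling.

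Lhx1, a LIM homeobox gene that GDNF induces in cultured mouse spermatogonia, and Eomes, a T-box gene of a small stem cell fraction, were near the lower limit of the test. Lhx1 had 14.03 and 15.4 normalised reads in knockout 1 and knockout 3, against 16.5 and 5.95 in control 1 and control 2. The groups overlapped, with control 1 the highest and control 2 the lowest. The log2 fold change was 0.51 (limma Benjamini-Hochberg adjusted p = 0.613), and it was -0.16 without control 2 and 1.17 without control 1. Eomes had 10.02 and 9.22 in the knockouts, against 11.6 and 11.9 in the controls, a log2 fold change of -0.27 (limma Benjamini-Hochberg adjusted p = 0.775). The groups did not overlap, but they rest on 19 recovered reads in the knockouts and 24 in the controls, a ratio of 0.818 with an exact 95% counting interval of 0.424 to 1.56. At this depth a difference of the size seen in Eomes was not detectable.

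The genes of cells leaving the stem state were not called either. Neurog3, a basic helix-loop-helix factor of cells primed to differentiate, had 36.1 and 23.6 normalised reads in knockout 1 and knockout 3, against 28.1 and 11.9 in control 1 and control 2. Knockout 1 was highest and control 2 lowest, and the groups overlapped. The log2 fold change was 0.64 (95% interval -0.52 to 1.80, limma Benjamini-Hochberg adjusted p = 0.44), and it was 0.052 without control 2, 1.23 without control 1, 0.34 without knockout 1 and 0.94 without knockout 3. Neurog3 shares 273 exon bases with Fam241b on the other strand in the GENCODE M21 annotation. Fam241b had 336 and 346 in the knockouts, against 269 and 220 in the controls, and since the strand setting of the counting is not given, some Neurog3 reads may belong to it.

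Nanos3, an RNA-binding protein first needed in primordial germ cells, had 62.1 and 67.6 normalised reads in knockout 1 and knockout 3, against 46.5 and 40.7 in control 1 and control 2. The knockouts were both higher. The log2 fold change was 0.56 (95% interval -0.089 to 1.22, limma Benjamini-Hochberg adjusted p = 0.222). Nanos2, its paralog and a repressor of differentiation, was the member without a tested value, since its mean stayed under the filter of 10. On the other strand, Gm45058 shares 766 of the 1563 Nanos2 exon bases in the GENCODE M21 annotation. Gm45058 had no values here, and with the strand setting not given, some Nanos2 reads may belong to it. Nanos2 had 10 reads in knockout 1 and 1 in knockout 3, against 0 in control 1 and 1 in control 2. Nearly all of its 12 reads came from 1 library. The ratio of knockouts to controls was 11.4 with an exact 95% counting interval of 1.65 to 489, which covers counting error only, while knockout 3 and control 2 had the same read number.

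**Figure D2:**
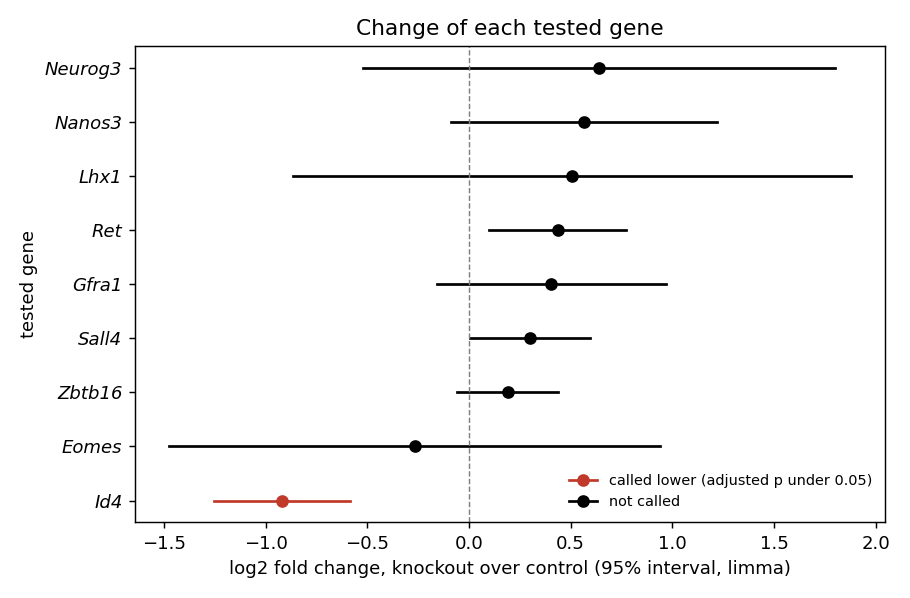
Log2 fold change of knockout over control for the 9 tested members, with 95% intervals from limma; Id4 is called lower (adjusted p under 0.05) and the others are not called. The intervals of Neurog3, Lhx1 and Eomes are the widest, and those of Ret and Sall4 lie above 0 before adjustment.

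Across the list, 7 of 9 tested members had a positive log2 fold change, beside 51.7% of all tested genes. The median was 0.40, beside 0.015 over all tested genes. The groups did not overlap in 4 members that were higher (Ret, Nanos3, Zbtb16 and Sall4) and 2 that were lower (Id4 and Eomes). Over all tested genes that was so for 29.8% in the higher direction and 31.9% in the lower. The same 7 members were lower in control 2 than in control 1, and the median of the log2 difference of control 2 minus control 1 was -0.27 over the 9 tested members. Without control 2 the median log2 fold change was 0.078, and without control 1 it was 0.57. With libraries scaled to Sertoli markers the median was 0.21 while that of all genes moved to -0.18. Such a scaling shifts all genes of a library nearly alike. The gap between both medians, 0.39 with either scaling, could therefore hardly change and tests nothing.

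**Figure D3:**
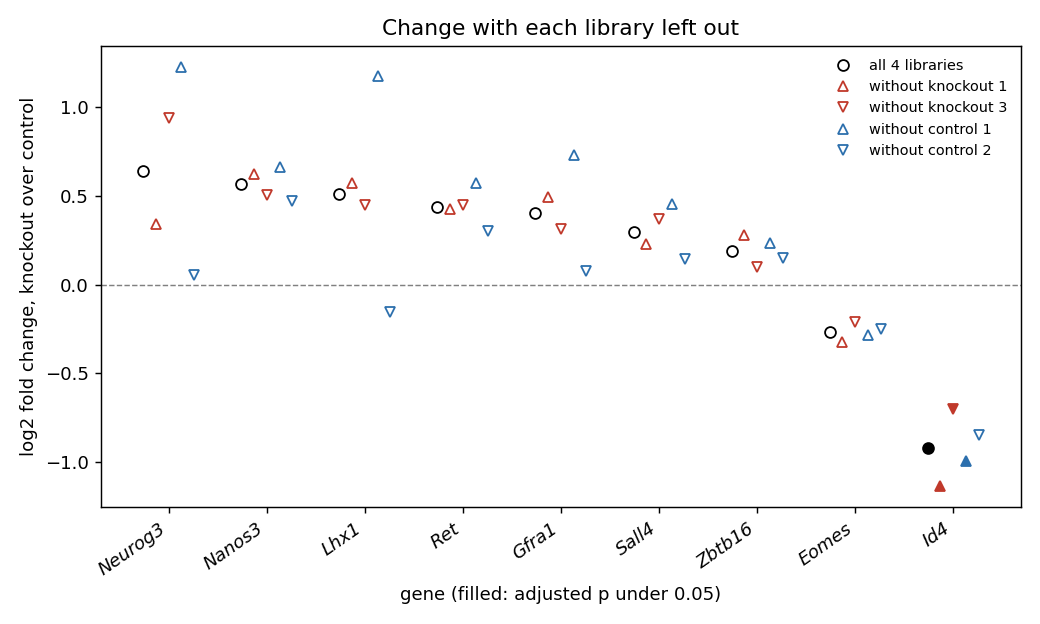
Log2 fold change of knockout over control for each tested member with all 4 libraries and with each library left out in turn; filled symbols passed the limma test. The values without control 2 lie near 0 for Gfra1 (0.078), Neurog3 (0.052) and Lhx1 (-0.16), and Id4 stays between -1.13 and -0.70.

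The close paralogs of Id4 were not called lower. The Id genes encode related inhibitors of basic helix-loop-helix factors, and Id1 to Id3 are also widely made by somatic cells. Id1 had 331 and 358 normalised reads in knockout 1 and knockout 3, against 241 and 227 in control 1 and control 2. Both knockouts were higher than both controls, with a log2 fold change of 0.55 (limma Benjamini-Hochberg adjusted p = 0.0338). This limma call was not shared by the authors' deposited table, which lists Id1 at an adjusted p of 0.0928. The call was lost with any 1 library left out (adjusted p from 0.0921 to 0.242, limma). Id2 and Id3 had log2 fold changes of 0.37 and 0.22 and were not called (limma Benjamini-Hochberg adjusted p = 0.119 and 0.273). The E protein gene Tcf3, whose product is bound by ID proteins, rose with a log2 fold change of 0.38 (limma Benjamini-Hochberg adjusted p = 0.0167), a call lost without control 2, without knockout 1 and without knockout 3 (adjusted p up to 0.146). Tcf4 and Tcf12, the other E protein genes, had 0.033 and 0.065.

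Among 15 tested paralogs and partners of the members, 2 were called higher (Id1 and Tcf3) and 1 lower. The lower gene was Cnot1, the scaffold of the deadenylase complex that NANOS2 recruits, with a log2 fold change of -0.50 (limma Benjamini-Hochberg adjusted p = 0.00256). That call was lost without control 2 (adjusted p = 0.0863). Nanos1 had a log2 fold change of 0.24 and was not called. The Sall4 paralogs Sall1, Sall2 and Sall3 had 0.31, 0.44 and -0.81, and none was called. Of the T-box relatives of Eomes, Tbr1 had 0.21 and Tbx21 0.97, both on few reads and not called. Lhx5 and Neurog2 stayed under the filter, and Neurog1 was not analysed here.

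The ligands of the GFRA and RET receptors and the other co-receptors moved in both directions. Gdnf had 140 and 228 normalised reads in knockout 1 and knockout 3, against 111 and 128 in control 1 and control 2. The lower knockout lay close to the higher control, and Gdnf was not called (log2 fold change 0.58, limma Benjamini-Hochberg adjusted p = 0.166). Nrtn, which encodes neurturin, a ligand that prefers GFRA2, had 176 and 185 in the knockouts, against 96.0 and 99.2 in the controls. It rose with a log2 fold change of 0.88 (limma Benjamini-Hochberg adjusted p = 0.016), but the call was lost with any 1 library left out (adjusted p from 0.086 to 0.145, limma). Artn, the artemin gene, had -0.11 on 15.0 to 20.8 normalised reads a library. Gfra4, the co-receptor of persephin, had 56.1 and 61.5 in the knockouts, against 104 and 201 in the controls. The controls differed from each other by more than control 1 did from either knockout. Gfra4 fell with a log2 fold change of -1.29 (limma Benjamini-Hochberg adjusted p = 0.029). It was -0.81 without control 2 and the call was lost (adjusted p = 0.263), and leaving out knockout 1 or knockout 3 also lost it (adjusted p = 0.138 or 0.127). Gfra2 and Gfra3 had log2 fold changes of -0.17 and 0.59 and were not called.

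**Figure D4:**
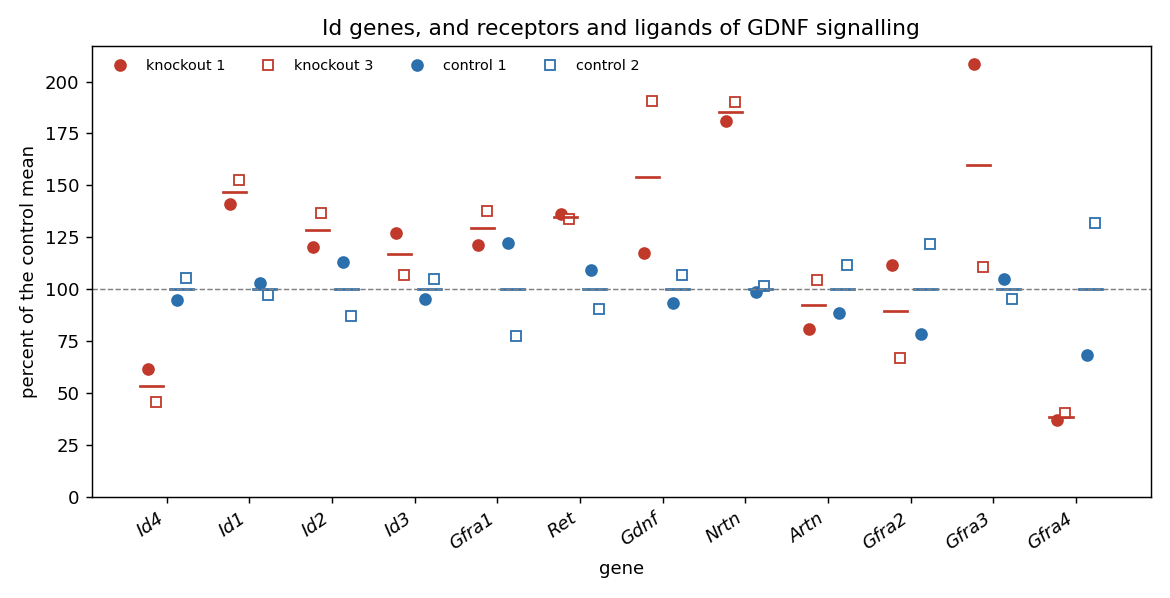
Each library's normalised read count as a percent of the control mean, for Id4 and its paralogs and for the receptors and ligands of GDNF signalling; lines are group means. Id4 and Gfra4 lie below 100% in both knockouts, at group means of 53.4% and 38.5%, and Id1 and Nrtn lie above it at 147% and 185%.

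Of 23 tested niche ligands and receptors, 5 were called higher and 1, Gfra4, lower. Besides Nrtn they were Fgfr1 (log2 fold change 0.45), a receptor of FGF2, Wnt6 (0.46), a Sertoli cell ligand, Kitl (0.27), the ligand of KIT on differentiating spermatogonia, and Igf1r (0.38), the receptor of IGF1. The count of higher calls was 1 without knockout 1, 0 without knockout 3, 1 without control 1 and 0 without control 2. Fgf2 had 0.13, Cxcl12 0.27 and Csf1 0.019, and none was called.

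In 32 tested genes known from undifferentiated spermatogonia outside the 10, 4 were called higher and 0 lower, and 27 had a positive log2 fold change. The higher calls numbered 9 with library totals, 1 scaled to Sertoli markers, 1 with low genes kept, 0 with the trend dropped (limma), 2 by edgeR and 3 by DESeq2. Ddit4, which restrains mTORC1 and is a target of PLZF in mouse spermatogonia, had 2852 and 2816 normalised reads in knockout 1 and knockout 3, against 1828 and 1926 in control 1 and control 2. The groups were far apart for their spread. Ddit4 rose with a log2 fold change of 0.59 (SE 0.077, limma Benjamini-Hochberg adjusted p = 0.00138), and the call held with each library left out in turn. Sox3, an X-linked factor of cells committed to differentiation, rose by 0.54 (limma Benjamini-Hochberg adjusted p = 0.0095). Elavl2, an RNA-binding protein gene, rose by 0.37 (adjusted p = 0.0498, limma) and Uchl1, a deubiquitinase of spermatogonia, by 0.28 (adjusted p = 0.0435, limma). Without either knockout and without control 2 these 3 calls were lost (adjusted p up to 0.256, limma), and that of Uchl1 was also lost without control 1. The median log2 fold change of the 32 was 0.23, and the median of control 2 minus control 1 was -0.14. The GDNF-responsive genes Etv5 and Bcl6b had 0.10 and -0.066, and Foxo1 and Lin28a had 0.12 and 0.069, with no call.

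Of 10 differentiating spermatogonia genes, 3 were called higher and 0 lower. They were Sohlh1 (0.42) and Rhox13 (0.45), whose calls were lost with any 1 library left out, and Dmrt1 (0.37), a factor of spermatogonia and Sertoli cells, whose call was lost without either knockout and without control 2. Scaled to Sertoli markers, 0 of the 10 were higher and 1, Dmrtb1, was lower. Dmrtb1, a gene of spermatogonia about to enter meiosis, had 1439 and 1591 normalised reads in knockout 1 and knockout 3, against 1878 and 3410 in control 1 and control 2. It was not called with the authors' size factors (log2 fold change -0.74, limma Benjamini-Hochberg adjusted p = 0.0597). It was called without control 1, at -1.17, and stood at -0.31 without control 2. Kit, the receptor that marks differentiation, had 0.10, and Stra8, the switch into meiosis, had 0.17, both not called.

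Markers of other testis cells moved beside Id4. Of 15 pachytene spermatocyte markers 14 were called lower, at a median of -2.39 on the log2 scale, and their summed normalised reads were 24670 and 19621 in the knockouts, against 70680 and 109080 in the controls. Hspa2, which had the highest normalised read counts of the list, not set per length, had a log2 fold change of -1.39. The one not called was Spag6, at 0.049. Those markers and Id4 were both higher in control 2 than in control 1, with a log2 difference of 0.91 (median) for the markers and 0.15 for Id4. Over all tested genes the median was 0.021, and any link between the markers and Id4 was not tested. Of 6 pan germ cell genes tested, 3 were called lower, Ddx4, Mael and Tdrd1, at -0.78, -0.93 and -1.30. Dazl, Tex101 and Dppa3 had -0.10, -0.26 and -0.31 and were not called. Sertoli markers were called higher for 4 of 16, Sox9, Cldn11, Aard and Defb36, with a median of 0.19. The count of higher calls was 2 without knockout 1, 2 without knockout 3, 3 without control 1 and 0 without control 2, and it was 7 with library totals. Cldn11 was lost with any 1 library left out. The sums of the Sertoli markers were 167234 and 156890 in the knockouts, against 143708 and 136462 in the controls. No marker of these lists was at 0 in every library, and the part of either cell type in the changes of the members was not tested. Of 7 Leydig, 4 peritubular myoid, 6 macrophage and 5 endothelial markers tested, 0 were called by the main limma test, edgeR or DESeq2. Scaled to Sertoli markers, 1 Leydig and 1 macrophage marker were called lower (limma). The Leydig median was -0.22, and it was -0.69 without knockout 1 and -0.078 without knockout 3.

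**Figure D5:**
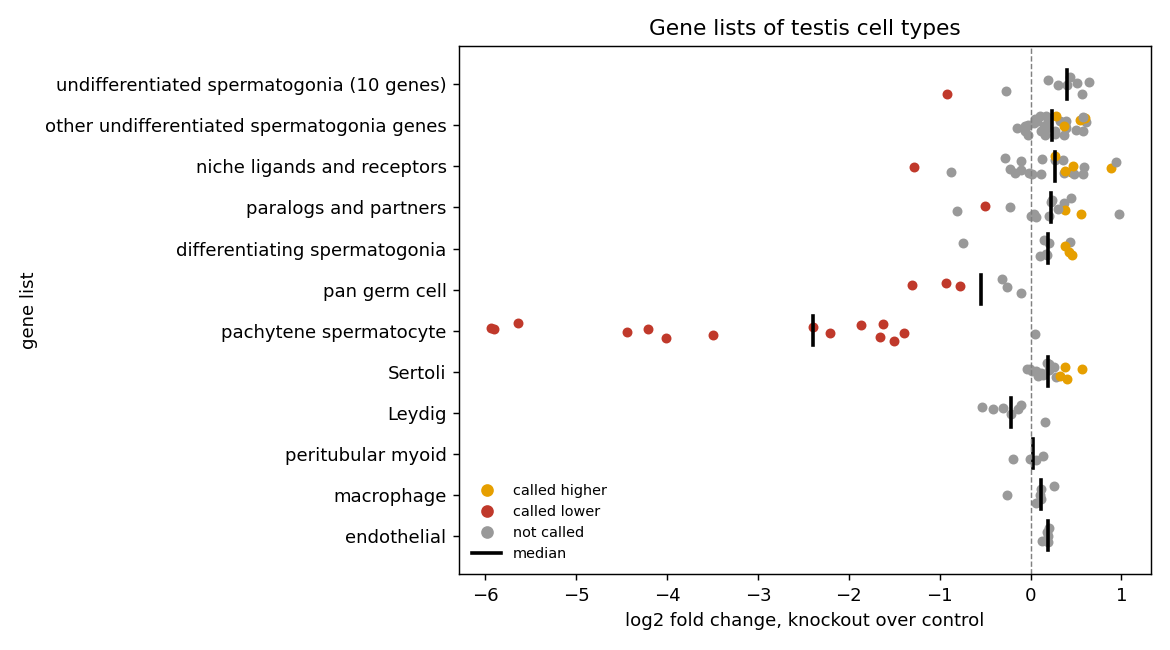
Log2 fold change of knockout over control for the tested genes of the members and of each companion list, with calls by limma at an adjusted p under 0.05 in colour and the median as a black line. The members' median is 0.40 with Id4 far to the left at -0.92, and the pachytene list has a median of -2.39.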

How the data were processed

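The labels' protocols give total RNA of whole testes and the NEBNext Ultra RNA library kit. Cutadapt, Bowtie2, featureCounts, DESeq2 and the build mm39 appear in the submitters' processing notes. Versions, roles, strand setting and annotation release were not given in the sources used. Per the file headers, the deposited table lists, for each gene, the authors' log2 fold change and its error, their test statistic (a score), and raw and adjusted p-values. It also holds a deposited signal per library, which is reads divided by 1 size factor. In every library 100% of values were whole multiples of the smallest, within 1e-06, and division by it gave recovered reads.

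The test was limma (version 3.58.1, R 4.3.3) with its trend option, applied to log2(value + 1). It covered the 17480 genes whose mean reached 10, and a call meant a Benjamini-Hochberg adjusted p under 0.05. Each variance had 6.3 prior and 2 residual degrees of freedom, so p-values rest largely on variance pooled over genes. The added 1 pulls fold changes of low genes toward 0, although as differences of mean logs they can exceed count-based ones, as for Lhx1 and Neurog3. The limma test was also run on simulated data, in which the changed genes had means of at least 50. Their changes were larger than those of the tested members, so that run does not bear on changes of the members' size. Alternatives were edgeR 4.0.16 (TMM factors) and DESeq2 1.42.0 on recovered reads, other pseudocounts, filters and scalings, and each library left out. A fit without 1 library assumes that the lone library of its group varies like the other group.

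Levels per kilobase used union exon lengths of GENCODE M21 (GRCm38), not the authors' annotation. The members and all 11 companion lists were chosen with earlier results of these data known. Named genes were the 10 members, Hsf5, paralogs, ligands of member receptors, and called or most abundant companions. Others (Fgf2, Cxcl12, Csf1, Etv5, Bcl6b, Foxo1, Lin28a, Kit, Stra8, Dmrtb1 and Spag6) were chosen after their values were seen. Knockout 2 and control 3 were not analysed here.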

Additional observations from a re-analysis of the deposited data

How the results depend on the processing

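Over 13 alternatives, Id4 stayed lower, with a log2 fold change from -1.13 to -0.70 (limma, edgeR or DESeq2, Benjamini-Hochberg adjusted p from 6.41e-06 to 0.119). With its groups apart, Id4 could not change direction when a library was left out or the pseudocount, filter or trend changed. When low genes were kept (adjusted p = 0.0675) and when the trend was dropped (adjusted p = 0.119), its limma call was lost and 0 members were lower, of 1 at an unadjusted p under 0.05 in each; the cause was not tested. With library totals 1 member, Ret, was called higher. Scaled to Sertoli markers Zbtb16 stood at -0.0057, and without control 2 Lhx1 stood at -0.16, in a range from -0.16 to 1.17 with each library left out. With each library left out, 0 to 1 members were lower, 0 were higher, and the members' median was 0.078 to 0.57.

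Over all genes the limma counts of higher and lower calls were 573 and 2366. They were 37 and 815 without a filter, 0 and 40 without the trend (4283 genes at an unadjusted p under 0.05; 517 higher by edgeR and 574 by DESeq2), 1511 and 2007 with library totals, and 96 and 3992 scaled to Sertoli markers. Lower calls were 80.5% of all calls, against 57.0% with library totals and 97.7% scaled to Sertoli markers. With each library left out, 31 to 337 genes were higher and 889 to 2096 lower. No paired analysis was possible because the libraries analysed share fewer than 2 replicate numbers across groups. Lhx1, Eomes, Neurog3 and Nanos2 rest on at most 36 reads a library, which limits what can be said of them.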
